A study of Mus musculus with 5 samples.

Results

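The genes described here are 31 of the 31053 genes counted in each library, listed by symbol for their work in making, sensing, moving, storing and exporting cholesterol. The list holds 18 enzymes of synthesis, 5 genes that sense sterols and control synthesis, 4 genes of sterol uptake and movement within the cell, and 4 genes of storage and export. It was drawn up with earlier results of these libraries known, so its values are given as a description. Cells make cholesterol from acetyl-CoA through mevalonate, farnesyl diphosphate and squalene, and the early part of this route also feeds the isoprenoids that anchor proteins to membranes. When sterols run low in the endoplasmic reticulum, SCAP carries the transcription factor SREBP2 away from the INSIG proteins, and the cut factor turns on the synthesis genes. Surplus sterol is esterified by the Soat1 product, or exported by Abca1 and Abcg1, which are targets of the liver X receptors. Myeloid cells that divide need sterol for new membrane, and macrophages are known for handling cholesterol taken up from dead cells.

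Single-cell RNA-seq was performed on bone marrow (BM) of BALB/c mice. The 3 whole-BM libraries held CD45+ cells of untreated naive mice and of mice taken 2 days (D2 CTX) or 7 days (D7 CTX) after 150 mg/kg of intraperitoneal cyclophosphamide (CTX), an alkylating drug. Each of these pooled equal numbers of cells from 3 mice, of either sex and 4 to 8 weeks old per the study's methods, after red cells were lysed and dead cells removed. Another 2 libraries held sorted BM monocytes (CD11b+Ly6Chi), of naive and of CTX-treated mice. The labels give no day for the sorted CTX sample, and the study's text gives day 7. The labels name no transgene or deletion. Every group was 1 library, so no difference below has a replicate check, and each interval covers counting error alone.

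After filtering, 1891 to 8290 cells per library remained, with 22279758 to 67921924 unique molecular identifiers (UMIs, each standing for 1 captured RNA molecule). The D7 CTX library was the deepest per cell among whole-BM libraries, with a median of 7189.5 UMIs against 3953.5 in naive and 3033.5 in D2 CTX. Pairs of libraries shared 1 to 15 cell barcodes, none with the same UMI total. Cells were placed in classes by markers, none of which is on the list of 31, and a class is named below by its marker list: monocyte-like cells by Csf1r, Ly6c2, F13a1, Ccr2, Ms4a6c and Fn1, for example. A level is the UMIs of a gene summed over the cells of a class, per 1000000 UMIs of that class (CPM), with an exact Poisson 95% interval. A change is the log2 ratio of 2 such levels, with an exact conditional 95% interval in parentheses. In such sums, fewer cells using a gene and less RNA per cell cannot be told apart.

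The promoters of 4 members that were higher in monocytes of D7 CTX than of naive BM are shown, with the letters that sterol control is known to use. In sorted monocytes Insig1 went the other way from the rest of these. They are Hmgcs1 (HMG-CoA synthase, the entry to the mevalonate route), Idi1 (isopentenyl diphosphate isomerase), Msmo1 (methylsterol monooxygenase, which removes methyl groups from the sterol rings) and Insig1 (the sterol-induced retention protein). Each window runs from 250 bases before the RefSeq start through the 50 bases from it, on build GRCm38.p6. Hmgcs1 lies at chr13:119690101-119690400 on the plus strand and Idi1 at chr13:8885356-8885655 on the plus strand. Msmo1 lies at chr8:64733529-64733828 on the minus strand and Insig1 at chr5:28071162-28071461 on the plus strand. All are written 5′ to 3′ along the gene, and capitals mark matches to the CCAAT box (CCAAT, or ATTGG for the other strand) or to the sterol response element core CACNCCAC on either strand.
Hmgcs1: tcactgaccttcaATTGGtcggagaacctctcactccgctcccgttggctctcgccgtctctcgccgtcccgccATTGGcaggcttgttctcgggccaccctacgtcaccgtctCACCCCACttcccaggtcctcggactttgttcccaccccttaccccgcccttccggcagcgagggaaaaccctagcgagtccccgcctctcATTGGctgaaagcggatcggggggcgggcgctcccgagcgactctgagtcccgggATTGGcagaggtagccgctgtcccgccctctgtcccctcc
Idi1: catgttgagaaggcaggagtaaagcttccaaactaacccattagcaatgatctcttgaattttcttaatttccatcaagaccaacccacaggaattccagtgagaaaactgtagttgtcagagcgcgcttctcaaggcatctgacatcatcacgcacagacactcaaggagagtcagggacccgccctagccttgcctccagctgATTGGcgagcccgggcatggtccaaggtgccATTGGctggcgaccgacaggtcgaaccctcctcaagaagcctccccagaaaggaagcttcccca
Msmo1: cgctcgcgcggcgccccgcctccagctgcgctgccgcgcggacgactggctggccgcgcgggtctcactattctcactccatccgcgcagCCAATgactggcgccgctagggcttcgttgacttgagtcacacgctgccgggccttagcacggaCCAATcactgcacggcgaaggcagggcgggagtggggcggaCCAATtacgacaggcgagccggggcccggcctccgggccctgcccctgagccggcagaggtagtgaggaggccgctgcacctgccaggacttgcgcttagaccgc
Insig1: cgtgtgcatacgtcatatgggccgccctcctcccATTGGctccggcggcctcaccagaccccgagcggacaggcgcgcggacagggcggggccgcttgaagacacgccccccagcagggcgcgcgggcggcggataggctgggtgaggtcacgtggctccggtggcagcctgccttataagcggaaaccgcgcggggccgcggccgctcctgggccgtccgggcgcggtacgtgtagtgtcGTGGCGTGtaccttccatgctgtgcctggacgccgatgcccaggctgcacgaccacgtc

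Hmgcs1 held 4 CCAAT boxes and 1 CACNCCAC match, which began 136 bases before the start. Msmo1 held 3 CCAAT boxes and Idi1 held 2. Insig1 held 1 CCAAT box and 1 CACNCCAC match, the latter 9 bases before the start and on the other strand. Of the 31 members, 25 had a promoter window, and Abcg1, Fdft1, Fdps, Npc1, Sqle and Stard4 had none. CCAAT was present in 14 of 15 synthesis genes (93.3%) and in 4 of 5 sensing genes, against 41.1% of 27025 genes with a window. A gene counted if any of its windows held the letters, so more windows raise the share. The 5 sensing genes had 10 windows, the 15 synthesis genes 18 and all 27025 genes 32851. At least 2 boxes stood in 9 of the 15 synthesis genes (60%) and in 13.3% of all genes. CACNCCAC was found in 3 of the 25 members (12%), Hmgcs1, Acat2 and Insig1, and in 7.12% of all genes. A match describes letters and not a bound factor.

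In naive BM, plasmacytoid dendritic cells, which make type I interferon, had the highest summed level of the 18 synthesis genes among the classes of at least 50 cells. Their 125 cells held 835 CPM (773 to 901). The MHC class II-rich class followed with 460 CPM (397 to 531) and monocytes with 353 CPM (336 to 372), and the interval of the first was apart from both others. Macrophages had 401 CPM, but their 59 cells, with a median of 783 UMIs, left an interval of 276 to 563 CPM that spanned both neighbours. B lineage cells and NK cells stood at 310 and 311 CPM, erythroid cells at 277 CPM and granulocyte-monocyte progenitors (GMPs) at 262 CPM. Pre-neutrophils had 241 CPM, basophils and mast cells 234 CPM and T cells 211 CPM, and intervals of neighbours in this order overlapped for most pairs. Neutrophils were lowest with 108 CPM (97.3 to 119). Among single cells with at least 2000 UMIs, the median was 6.72 synthesis UMIs per 10000 in plasmacytoid dendritic cells and 2.80 in monocytes. All 6 markers of the plasmacytoid dendritic list were present in the class named for it, but the same markers had gated its cells. The least abundant, Cd300c, had 12 UMIs there.

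**Figure D1:**
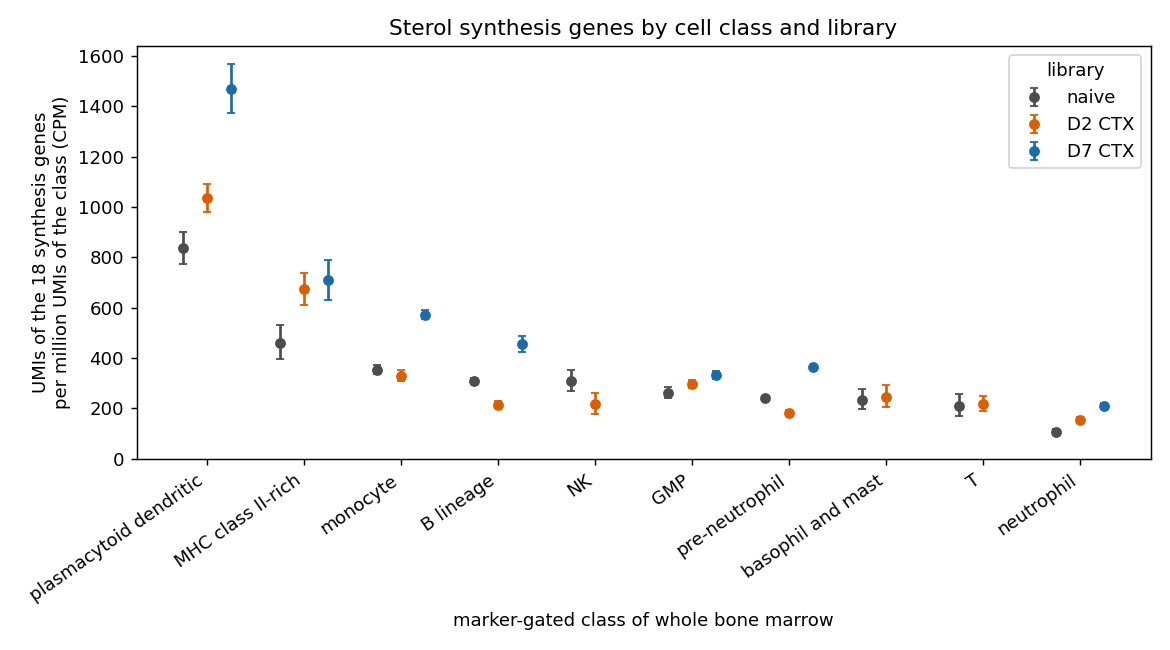
Summed level of the 18 synthesis genes in CPM (vertical axis) by marker-gated class (horizontal axis) for the naive, D2 CTX and D7 CTX libraries. Bars are exact Poisson 95% intervals, and classes under 50 cells in a library are left out. Erythroid cells and macrophages are not plotted in any library. Plasmacytoid dendritic cells are highest in each library, at 835, 1034 and 1468 CPM, and D7 CTX lies above naive in every class plotted for both.

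Gene by gene, plasmacytoid dendritic cells had the highest naive level for 15 of the 31 members, although the interval was apart from that of the second class for only Hmgcs1 and Sqle (squalene epoxidase). Hmgcs1 reached 91.4 CPM there, against 18.4 CPM in all other naive cells, a log2 ratio of 2.31 (1.95 to 2.66). Npc1, the lysosomal membrane protein that passes cholesterol out of lysosomes, reached 173 CPM against 9.15 CPM, a log2 ratio of 4.24 (3.95 to 4.52). Npc2, its soluble lysosomal partner, stood at 941 CPM against 276 CPM. The sensing genes were high there too, with Scap at 77.7 against 14.1 CPM, Insig1 at 82.7 against 15.2 CPM and Srebf2, which encodes SREBP2, at 129 against 35.2 CPM. Soat1, which stores sterol as esters, was lower in plasmacytoid dendritic cells, 11.3 against 36.6 CPM, and so was Mylip, whose product marks lipoprotein receptors for degradation, 8.77 against 22.5 CPM. For a call, a gene needed at least 200 UMIs over both sides, 20 CPM on either side and a 1.5-fold difference after 1 CPM was added, while printed ratios have nothing added. By this rule 12 of the 13 synthesis genes that passed the filter were higher in plasmacytoid dendritic cells, beside 36.4% of all 6760 genes that passed, and 9 of the 13 passed only through that class, so that these had to differ. Without the filter, all 18 synthesis genes had a higher level there and the interval left out 0 for 14, beside 54.7% and 26.9% of genes with at least 10 UMIs.

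For the genes of movement and export, macrophages, monocytes and B lineage cells were among the leading classes. Abca1, which loads cholesterol onto lipoproteins, stood at 182 CPM (102 to 301) in macrophages and at 25.1 CPM in B lineage cells, the second class. Abcg1, the exporter to mature particles, stood at 194 CPM (111 to 316) in macrophages and at 48.6 CPM in T cells. These macrophage levels rest on 15 and 16 UMIs. Npc2 and Soat1 were highest in monocytes, with 1386 CPM (5979 UMIs) and 137 CPM (589 UMIs), and both intervals were apart from those of the next class. Hsd17b7, an enzyme of late sterol synthesis, was highest in pre-neutrophils at 20.4 CPM, with B lineage cells next at 11.4 CPM. Nr1h2, the widely expressed liver X receptor, was highest in B lineage cells at 52.3 CPM with T cells at 50.9 CPM, with overlapping intervals.

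**Figure D2:**
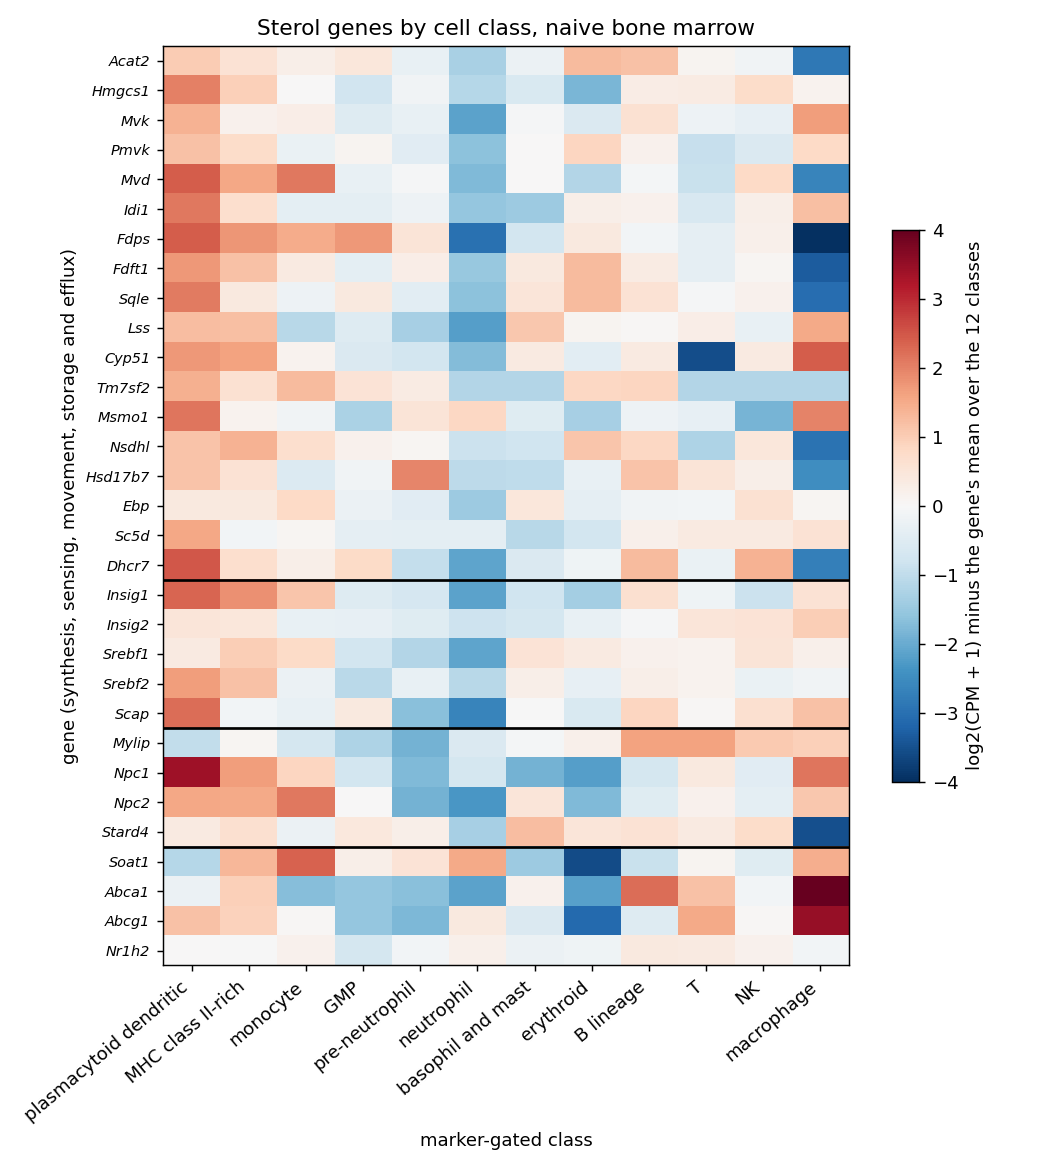
Heat map of naive BM with the 31 genes as rows, grouped by role between black lines, and 12 marker-gated classes as columns, where colour is log2(CPM + 1) minus the gene's mean over the classes. Red fills most of the plasmacytoid dendritic column down to Npc1, and the macrophage column is red for Abca1 and Abcg1, where it rests on few UMIs.

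The D7 CTX library was compared with naive for the recovery phase. In monocytes, which numbered 784 in D7 CTX and 547 in naive, the summed synthesis level was 572 CPM (554 to 590) against 353 CPM, a log2 ratio of 0.70 (0.61 to 0.78). Without the filter all 18 synthesis genes had a higher level in D7 CTX, and the interval left out 0 for 14 of them. Over all 11083 genes with at least 10 UMIs, 39% were higher and 6.86% had such an interval. By the 1.5-fold rule 8 of the 11 synthesis genes that passed the filter were higher and 0 lower. Beside this, 1.71% were higher and 1.2% lower over all 5735 genes that passed. However, 6 of the 11 passed only through D7 CTX, and all 6 were among the 8, so the filter fixed their direction. Of the 8, only Fdps and Hmgcs1 also reached 20 CPM in naive. With no filter on low genes 14 of 31 members were past 1.5-fold higher and 1 lower, beside 4% and 5.27%. With the filter 3 were 2-fold higher, beside 0.523%, namely Idi1, Msmo1 and Cyp51. These 3 passed only through D7 CTX, so their direction was fixed as well. The median log2 ratio of the 11 synthesis genes was 0.78, and that of all genes was -0.07. Single monocytes with at least 2000 UMIs had a median of 4.33 synthesis UMIs per 10000 in D7 CTX (quartiles 2.31 and 7.06) and 2.80 in naive (quartiles 1.46 and 4.52), so that the cells of both libraries overlapped.

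The early, isoprenoid-forming steps were higher with 1 exception. Hmgcs1 had 292 UMIs in D7 CTX monocytes and 96 in naive, or 43.4 and 22.3 CPM, a log2 ratio of 0.96 (0.63 to 1.31). Idi1 had 42.9 against 19.2 CPM, a ratio of 1.16 (0.80 to 1.53), and Fdps, which makes farnesyl diphosphate, had 91.5 against 52.9 CPM, a ratio of 0.79 (0.57 to 1.02). Mvk, the mevalonate kinase, had a ratio of 0.74 (0.30 to 1.21) and Acat2, which makes acetoacetyl-CoA, a ratio of 0.71 (0.11 to 1.33). Pmvk, the next kinase, was the exception among these steps with 23.9 against 22.7 CPM. The interval of its ratio, -0.30 to 0.45, held 0. Mvd, the decarboxylase that yields isopentenyl diphosphate, had a smaller ratio of 0.46 (0.13 to 0.80).

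The 3 largest ratios among the 18 synthesis genes belonged to steps from squalene onward. Sqle, the oxygen-requiring step on squalene, had 170 UMIs in D7 CTX and 27 in naive, or 25.3 and 6.26 CPM, a ratio of 2.01 (1.42 to 2.66) from a gene below the filter. Msmo1 had 281 and 68 UMIs, or 41.8 and 15.8 CPM, a ratio of 1.41 (1.02 to 1.81). Cyp51, the lanosterol demethylase, had 29.4 and 11.8 CPM, a ratio of 1.32 (0.86 to 1.79). Fdft1 (squalene synthase) had a ratio of 0.87 (0.40 to 1.35), Sc5d (sterol desaturase) 0.76 (0.36 to 1.16), Hsd17b7 0.98 (0.01 to 2.06) and Dhcr7, the enzyme of the last step, 0.68 (0.05 to 1.34). Ebp, a sterol isomerase and the synthesis gene with most UMIs here, had only 113 against 99.7 CPM, a ratio of 0.19 (0.01 to 0.36). Lss (lanosterol synthase), Tm7sf2 (a sterol reductase) and Nsdhl, which takes part in demethylation, had ratios of 0.62, 0.40 and 0.39 with intervals that held 0. Without Ebp the ratio of the summed level was 0.85.

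Among the 5 sensing genes, Insig1 had 405 UMIs in D7 CTX monocytes and 151 in naive, or 60.2 and 35 CPM, a ratio of 0.78 (0.51 to 1.06). Srebf2 had 38.5 and 34.1 CPM, a ratio of 0.18 (-0.12 to 0.48), and Insig2, Srebf1 and Scap also had intervals that held 0. Stard4, which carries cholesterol through the cytosol, had 145 and 38 UMIs, a ratio of 1.29 (0.77 to 1.85). Mylip went the other way with 5.94 against 10.9 CPM, a ratio of -0.87 (-1.52 to -0.23) on 40 and 47 UMIs. The genes of lysosomal movement and export were level by comparison. Npc2 had 1387 and 1386 CPM with a ratio of 0.00 (-0.05 to 0.05), Soat1 137 CPM in both with a ratio of 0.00 (-0.15 to 0.15), Npc1 a ratio of -0.09 (-0.42 to 0.25), Abcg1 a ratio of 0.19 (-0.24 to 0.63) and Nr1h2 a ratio of 0.06 (-0.20 to 0.33). Abca1 had 6 and 3 UMIs, too few for a comparison.

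Other measures moved with the monocyte gate. The summed level of the 6 pre-neutrophil markers in it went from 1064 CPM in naive to 2831 CPM at D7 CTX, that of the 7 GMP markers 1416 and 2171 CPM, and that of the 5 MHC class II-rich markers 246 and 90.6 CPM. The plasmacytoid dendritic markers were at 17.2 and 27.8 CPM and the monocyte markers at 6323 and 6281 CPM. Macrophage markers were at 24.1 and 19.5 CPM with 1 of 7 at 0 in each. The part of these shifts in the ratios was not tested. In cells of 4000 to 10000 UMIs alone, a setting chosen after the data were seen, the ratio of the summed level was 0.75.

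**Figure D3:**
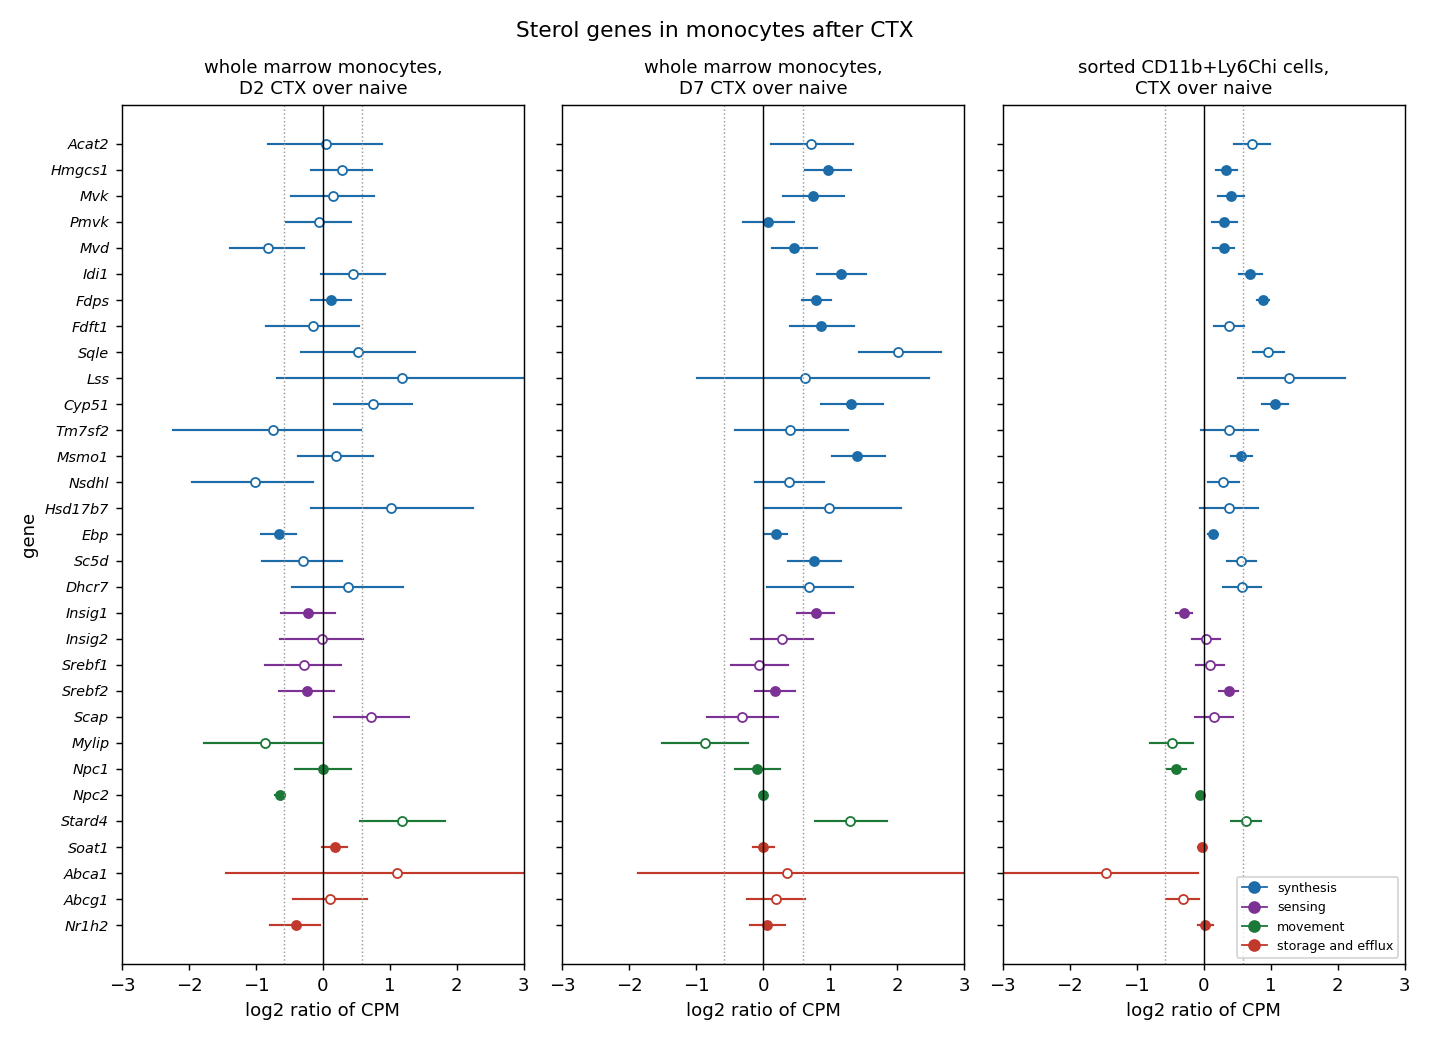
Log2 ratio of CPM for each of the 31 genes in monocytes of D2 CTX over naive, D7 CTX over naive and sorted CTX over sorted naive monocytes, on an axis from -3 to 3. Points are ratios and bars exact 95% counting intervals, filled points passed the filter, and dotted lines mark 1.5-fold. The synthesis genes lie right of 0 in the D7 CTX and sorted panels and on both sides of it at D2.

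Cycling and non-cycling cells were then taken apart, since dividing cells build membrane. A cycling cell had UMIs of at least 3 of 10 proliferation genes and a non-cycling cell of at most 1. Deeper cells pass such a count more easily, so this gate also parts cells by depth. In naive BM the 181 cycling monocytes held 2207326 UMIs and the 325 non-cycling ones 1807129 UMIs. Cycling monocytes of D7 CTX held 749 CPM of synthesis genes against 441 CPM, a log2 ratio of 0.76, and in non-cycling monocytes it was 386 and 255 CPM, a ratio of 0.60. All 18 synthesis genes were higher in cycling D7 CTX monocytes, 11 with an interval above 0, beside 44.8% and 6.76% of all genes. In non-cycling monocytes 15 of the 17 with at least 10 UMIs were higher, 8 with such an interval, beside 41.4% and 5.1%. Msmo1 was higher in both, with ratios of 1.67 (1.16 to 2.21) and 1.13 (0.48 to 1.83), and so was Idi1, with 1.26 and 1.09. Insig1 had 70.5 against 27.2 CPM in cycling monocytes, a ratio of 1.37 (0.96 to 1.81), and a ratio of 0.19 (-0.20 to 0.59) in non-cycling ones. The difference between these ratios was not tested. Mylip was lower in non-cycling monocytes, with 24 and 39 UMIs and a ratio of -1.42 (-2.22 to -0.65).

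At D2 CTX, when 183 cells passed the monocyte gate, the synthesis genes of monocytes had no common direction. Their sum was 330 CPM against 353 CPM in naive, a log2 ratio of -0.10 (-0.22 to 0.02). Of the 18 genes 11 were higher and 7 lower, with an interval above 0 for 1 and below 0 for 3, beside 23.3% and 13.7% of all genes. Cyp51 was the higher one, with 19.9 against 11.8 CPM and a ratio of 0.75 (0.17 to 1.34). Ebp was lower, with 63.1 against 99.7 CPM, a ratio of -0.66 (-0.93 to -0.40), as were Mvd, with 14.7 against 26.0 CPM, and Nsdhl, with a ratio of -1.01 (-1.95 to -0.15) on 15 and 49 UMIs. Npc2 was lower as well, with 890 against 1386 CPM and a ratio of -0.64 (-0.71 to -0.57). Ebp and Npc2 were the members past 1.5-fold among 8 that passed the filter, beside 6.06% lower and 9.99% higher over all genes. With no filter on low genes 5 of 31 members were past 1.5-fold higher and 5 lower, beside 16.3% and 8.63%, and 0 were 2-fold lower with the filter, beside 1.26%. Stard4 was higher with 19.9 against 8.81 CPM, a ratio of 1.18 (0.55 to 1.82), and Soat1 differed little, with 154 against 137 CPM. The D2 cells in this gate had deeper libraries per cell, with a median of 9799 UMIs against 6527, and a summed proliferation level of 3141 against 2206 CPM. In cells of 4000 to 10000 UMIs the ratio of the synthesis sum was 0.25, and without Ebp it was 0.07.

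The 2 CTX libraries were also set against each other, which uses the same libraries as the comparisons with naive. In monocytes the synthesis sum was higher in D7 CTX than in D2 CTX by a log2 ratio of 0.79 (0.69 to 0.90). Among all 18 genes 16 were higher, 12 with an interval above 0, beside 38.5% and 13.2% of all genes. By the 1.5-fold rule 7 of 9 that passed the filter were higher, beside 7.44%, and 4 of the 9 passed only through D7 CTX. Mvd had 35.8 against 14.7 CPM, a ratio of 1.29 (0.80 to 1.82), Msmo1 a ratio of 1.21 and Insig1 a ratio of 1.0. Npc2 was higher in D7 CTX by 0.64.

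Sorted CD11b+Ly6Chi monocytes offered a set of cells chosen without any marker gate. The 2564 CTX cells held 537 CPM of the 18 synthesis genes and the 1891 naive cells 382 CPM, a log2 ratio of 0.49 (0.46 to 0.53). All 18 genes had a higher level in CTX, and the interval lay above 0 for 16, beside 58.9% and 20.6% of 12489 genes. At 1.5-fold, 3 of the 9 synthesis genes that passed the filter were higher and 0 lower. Beside this, 0.541% were higher and 2.36% lower over all 5549 genes that passed. Of the 9, 4 passed only through CTX. Among the 3 called, Cyp51 and Idi1 did so, which fixed their direction, and Fdps passed through both libraries. With no filter on low genes 6 of 31 members were past 1.5-fold higher, beside 1.06%. With the filter 1 was 2-fold higher, beside 0.144%, and this was Cyp51. The median ratio of the 9 synthesis genes was 0.39, against 0.03 for all genes.

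Fdps had 3261 UMIs in sorted CTX monocytes and 1372 in naive, or 114 and 61.6 CPM, a ratio of 0.89 (0.80 to 0.98). Cyp51 had 793 and 296 UMIs, or 27.7 and 13.3 CPM, a ratio of 1.06 (0.87 to 1.26), and Idi1 had 29.9 and 18.5 CPM, a ratio of 0.69 (0.52 to 0.86). These were the members past 1.5-fold among those that passed the filter. Below the filter, Sqle had 19.8 and 10.1 CPM, a ratio of 0.96 (0.74 to 1.19), and Lss had 59 and 19 UMIs, a ratio of 1.27 (0.51 to 2.10). Acat2 had a ratio of 0.72 (0.45 to 0.99) and Stard4 one of 0.63 (0.40 to 0.85). Msmo1 (0.56), Hmgcs1 (0.34), Mvk (0.41) and Srebf2 (0.37) were higher by less than 1.5-fold, each with an interval above 0. Tm7sf2 and Hsd17b7 had ratios of 0.38 and 0.37 with intervals that held 0.

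The sterol sensor Insig1 went the other way in the sorted cells, with 1277 UMIs in CTX and 1220 in naive, or 44.6 and 54.8 CPM, a ratio of -0.30 (-0.41 to -0.18). Npc1 was lower as well, with 27.1 against 36.1 CPM and a ratio of -0.41 (-0.56 to -0.27), and Mylip had a ratio of -0.48 (-0.80 to -0.15). Abca1 and Abcg1 had ratios of -1.46 (-3.0 to -0.08) and -0.31 (-0.56 to -0.07), the former on 7 and 15 UMIs. Npc2 and Soat1 were close to level, with -0.06 (-0.08 to -0.04) and -0.03 (-0.09 to 0.04). In the whole-BM monocyte gate of D7 CTX, Insig1 had a ratio of 0.78, so this sensor pointed in opposite directions in the gated and the sorted cells. The gated and sorted libraries differ in sort, depth and cell mixture, which cannot be told apart.

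Within the sort, the 1611 naive and 2076 CTX cells outside any granule-rich or MHC class II-rich gate had synthesis sums of 360 and 509 CPM, a ratio of 0.50. The 211 and 398 azurophil granule-high cells, rich in Mpo, Elane, Prtn3 and Ctsg, had sums of 495 and 643 CPM, a ratio of 0.38. In cycling sorted cells the sums were 478 and 659 CPM (ratio 0.46), with all 18 genes higher in CTX and 13 intervals above 0, beside 55.2% and 12.3% of all genes. In non-cycling cells they were 266 and 350 CPM (ratio 0.40), with 16 of 18 higher and 11 intervals above 0, beside 58.3% and 13.5%. Insig1 was lower in non-cycling cells, with 42.2 against 59.4 CPM and a ratio of -0.49 (-0.68 to -0.31). In the cells outside the gates the pre-neutrophil markers summed to 418 CPM in naive and 704 CPM in CTX and the plasma cell markers to 193 and 4.35 CPM. Their part in the ratios was not tested.

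Cycling and non-cycling cells of the same sorted library had the larger difference in the synthesis sum. They also differed in depth. In naive the 697 cycling cells held 11679876 UMIs and the 1068 non-cycling cells 9251497 UMIs. In CTX it was 16867711 UMIs in 1133 cells and 9752435 UMIs in 1222 cells. The part of depth in the ratios was not tested. The synthesis sum of cycling over non-cycling cells gave a ratio of 0.85 (0.78 to 0.91) in naive and 0.91 (0.85 to 0.97) in CTX. In naive 17 of 18 genes were higher in cycling cells, 14 with an interval above 0 and 1 with an interval below 0, beside 50.4%, 29.5% and 27.3% of all genes. In CTX 17 were higher, 15 with an interval above and 1 below 0, beside 48.6%, 29% and 30%. Fdps reached 93.3 CPM in naive cycling cells and 22.9 CPM in non-cycling ones, a ratio of 2.03 (1.81 to 2.25), and 160 and 41.8 CPM in CTX, a ratio of 1.94 (1.78 to 2.09). Idi1 had ratios of 2.00 (1.61 to 2.41) and 1.62 (1.35 to 1.91), Hmgcs1 of 1.06 and 1.31, Mvk of 1.45 and 0.94, and Sqle of 1.79 and 2.50. The gene for the master factor, Srebf2, was also higher in cycling cells, by 0.90 and 0.93.

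Mvd was the 1 synthesis enzyme that was lower in cycling sorted cells, with 20.5 against 31.6 CPM in naive, a ratio of -0.62 (-0.87 to -0.37), and 25.7 against 41.6 CPM in CTX, a ratio of -0.70 (-0.90 to -0.50). Several export and movement genes also had lower levels there. Abcg1 had 3.85 against 22.4 CPM in naive, a ratio of -2.54 (-3.04 to -2.07), and a ratio of -1.47 (-1.85 to -1.10) in CTX. Mylip had ratios of -1.19 (-1.68 to -0.71) and -1.76 (-2.30 to -1.23), Npc1 of -0.52 and -1.03, and Npc2 of -0.49 and -0.48. Soat1 was closer to level, with -0.15 and -0.13, and Stard4 was higher, with 0.56 and 0.71. At 1.5-fold, 5 of 15 members that passed were higher and 2 lower in naive, beside 17.6% and 13.8%, and 9 of 18 were higher and 2 lower in CTX, beside 17.7% and 13.7%. Of the synthesis genes that passed, 5 of 8 in naive and 7 of 11 in CTX did so only through cycling cells. Besides Mvd, the lower members were Abcg1 in naive and Npc1 in CTX, each of which passed only through non-cycling cells.

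The whole-BM monocytes had cycling over non-cycling ratios of 0.79 in naive (441 and 255 CPM), 0.21 (-0.04 to 0.46) at D2 and 0.96 at D7 CTX. Pre-neutrophils differed from this, with ratios of 0.12 in naive, 0.14 at D2 and -0.13 at D7 CTX. With the 20 most abundant genes left out of the total, the naive value turned to -0.067. In cells of 4000 to 10000 UMIs alone, the D7 CTX value was 0.0054. In D7 CTX pre-neutrophils Msmo1 had 27.7 CPM in cycling and 63.8 CPM in non-cycling cells, a ratio of -1.20, and Hsd17b7 had 15.5 and 26.4 CPM, while Ebp was higher in cycling cells with 54.8 and 34.7 CPM. These 2 lower and 1 higher synthesis genes stand beside 18.6% lower and 31.1% higher over all genes.

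**Figure D4:**
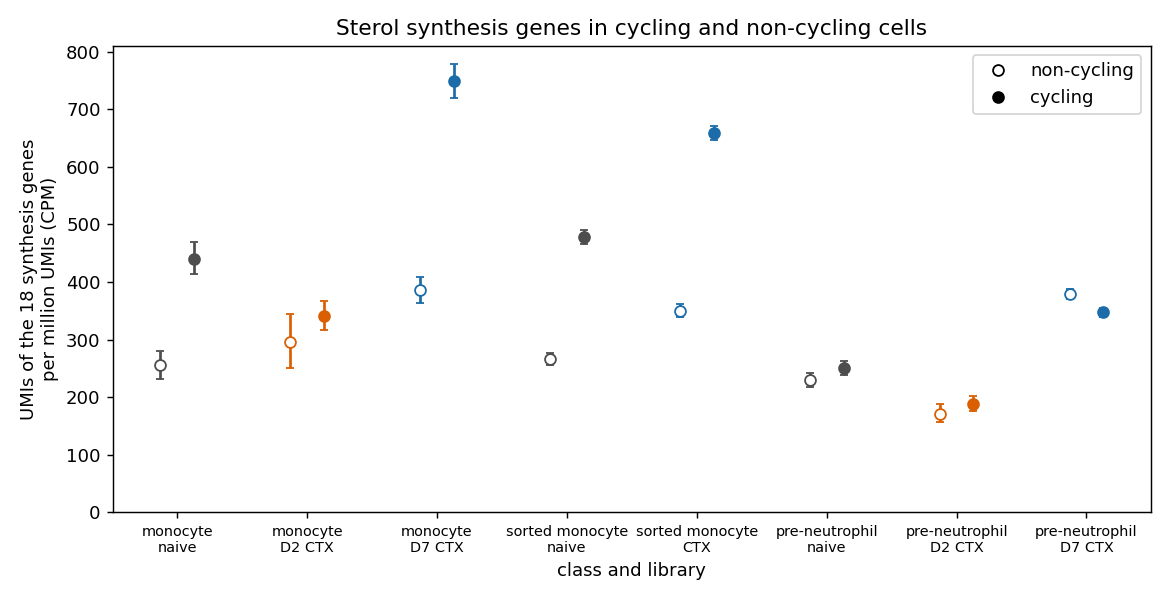
Summed level of the 18 synthesis genes in CPM in non-cycling (open) and cycling (filled) cells of whole-BM monocytes, sorted monocytes and whole-BM pre-neutrophils, by library, with exact Poisson 95% intervals. Filled points lie above open points in monocytes of naive and D7 CTX and in both sorted libraries, at 478 against 266 and 659 against 350 CPM, and close to them in pre-neutrophils.

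Granulocytes showed a different course at D2 CTX and a common one at D7 CTX. Over all tested genes the median log2 ratio at D2 CTX was 0.26 in pre-neutrophils and 0.33 in neutrophils, so values there are to be read against it. Scaled by that median, the ratios of the synthesis sum given next were -0.66 in place of -0.40 and 0.18 in place of 0.51. In pre-neutrophils, the dividing and granule-filling precursors, the synthesis sum was 182 CPM at D2 CTX against 241 CPM in naive, a ratio of -0.40 (-0.50 to -0.31). Of the 18 genes 2 were higher and 16 lower, 9 with an interval below 0 and 0 above it, beside 10% and 35.2% of all genes. Idi1 had 12.7 against 22.2 CPM, a ratio of -0.81 (-1.17 to -0.47), Pmvk 9.75 against 19.5 CPM, a ratio of -1.0 (-1.41 to -0.62), and Mvk a ratio of -1.32 (-2.01 to -0.69). Sqle had a ratio of -1.30 (-2.22 to -0.48), Acat2 one of -1.0 (-1.84 to -0.23) and Dhcr7 one of -2.14 on 4 and 32 UMIs. Insig1 had 4.6 against 9.62 CPM, a ratio of -1.07 (-1.66 to -0.50), and Srebf2 a ratio of -0.44 (-0.71 to -0.18).

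Storage and export genes of D2 CTX pre-neutrophils went the opposite way, as did Npc1, Mylip and Scap of the other roles. Soat1 had 72.7 against 38.5 CPM, a ratio of 0.92 (0.74 to 1.10), Abcg1 had 14.8 against 3.92 CPM, a ratio of 1.91 (1.42 to 2.42), and Npc1 had 10.2 against 3.85 CPM, a ratio of 1.40 (0.86 to 1.95). Scap and Mylip had ratios of 0.93 (0.38 to 1.49) and 0.91 (0.35 to 1.47). The sum of the 4 storage and export genes was 135 against 79.9 CPM, a ratio of 0.76 (0.63 to 0.88), while the median of all genes was 0.26. Of these 4 genes 3 had an interval above 0, beside 35.2% of all genes. By the 1.5-fold rule only Soat1 was higher and only Idi1 lower among 9 members that passed, beside 20.2% higher and 2.55% lower over all genes, and Idi1 passed only through naive. In this gate the summed neutrophil markers were at 4223 CPM in naive and 7648 CPM in D2 CTX, the macrophage markers at 105 and 166 CPM and the proliferation genes at 1750 and 2106 CPM, and their part in these ratios was not tested.

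At D7 CTX the pre-neutrophil synthesis sum was 364 CPM, a ratio of 0.59 (0.54 to 0.65) over naive, while the median of all genes was -0.17. Here 16 of 18 genes were higher, 12 with an interval above 0 and 0 below it, beside 23.4%, 5.65% and 41.3% of all genes. At 1.5-fold 3 of the 7 that passed were higher, beside 0.703%, and Hmgcs1 and Pmvk passed only through D7 CTX. Those 3 were Fdps with 51.5 against 26.2 CPM, a ratio of 0.97 (0.81 to 1.14), Idi1 with 39.4 against 22.2 CPM and 0.82 (0.64 to 1.01), and Msmo1 with 44.7 against 25.9 CPM and 0.79 (0.62 to 0.96). Below the filter, Cyp51 had a ratio of 1.17 (0.82 to 1.53), Sqle one of 1.16 (0.79 to 1.55) and Insig1 one of 0.81 (0.54 to 1.10). Hsd17b7 was level at 20.6 and 20.4 CPM, and Soat1, Abcg1 and Npc1 had intervals that held 0. Against D2 CTX, the sum was higher by 1.0 (0.91 to 1.08) with 17 of 18 genes higher, 16 of them with an interval above 0, beside 21.7% and 7.01%. All 4 storage and export genes had an interval below 0 in that comparison, beside 52.8% of all genes.

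Neutrophils, the class with the lowest synthesis sums, held 108 CPM in naive, 154 CPM at D2 and 211 CPM at D7 CTX, with ratios over naive of 0.51 (0.34 to 0.69) and 0.97 (0.81 to 1.13). At D2 CTX 11 of the 15 synthesis genes with at least 10 UMIs were higher, 4 with an interval above 0, beside 76.6% and 34.8% of all genes, so their share was no larger than the background. At D7 CTX 14 of 15 were higher, 12 with an interval above 0, beside 35.6% and 7.63%. Hmgcs1 had 34 UMIs in naive, 119 at D2 and 215 at D7 CTX, or 9.47, 20.5 and 28.0 CPM, a D7 ratio of 1.56 (1.04 to 2.13). Fdps had 5 UMIs in naive and 83 in D7 CTX, a ratio of 2.95 (1.67 to 4.62), and Cyp51 had 9 and 97, a ratio of 2.33 (1.35 to 3.50). Msmo1 had 51.6 against 32.0 CPM at D7 CTX, a ratio of 0.69 (0.39 to 1.0). By the 1.5-fold rule Hmgcs1, Msmo1 and Srebf2 were the members higher at D7 CTX, beside 2.69% of all genes, but Hmgcs1 and Srebf2 passed the filter only through D7 CTX, which fixed their direction.

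Srebf2 in neutrophils was at 18.1 CPM in naive, 36.3 CPM at D2 and 34.1 CPM at D7 CTX, with ratios of 1.0 (0.60 to 1.43) and 0.91 (0.52 to 1.33). Soat1 differed between the days, with 76.3 CPM in naive, 150 CPM at D2 and 62.1 CPM at D7 CTX. Its D2 ratio was 0.97 (0.77 to 1.17) and its D7 over D2 ratio -1.27 (-1.43 to -1.11). Abcg1 was at 21.7, 31.5 and 4.81 CPM in that order, and its D7 ratio over naive was -2.17 (-2.78 to -1.59). Mylip was at 12, 15 and 3.90 CPM, with a D7 ratio of -1.62 (-2.34 to -0.91). The 4 storage and export genes summed to 143, 241 and 106 CPM. Soat1 and Srebf2 were the members past 1.5-fold at D2 CTX, beside 21.5% of all genes, and Soat1 and Abcg1 were lower in D7 than in D2 CTX, beside 45.8%. In these comparisons Srebf2 and Abcg1 passed the filter only through D2 CTX, where they were high. Macrophage markers in the neutrophil gate summed to 157, 218 and 125 CPM, B lineage markers to 76.0, 165 and 11.4 CPM and GMP markers to 475, 79.0 and 343 CPM in naive, D2 and D7 CTX, and their part was not tested. The D7 CTX neutrophils were also deeper per cell, with a median of 4413 UMIs against 2665 in D2 CTX and 2524.5 in naive. In cells of 4000 to 10000 UMIs the synthesis ratio over naive was 0.30 at D2 CTX and 0.76 at D7 CTX.

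Plasmacytoid dendritic cells, already highest in naive BM, had 1034 CPM (978 to 1092) at D2 and 1468 CPM (1375 to 1566) at D7 CTX, ratios over naive of 0.31 (0.17 to 0.44) and 0.81 (0.67 to 0.96). At D2 CTX 13 of 18 synthesis genes were higher, 4 with an interval above 0, beside 54.3% and 12.1% of all genes. At D7 CTX all 17 with at least 10 UMIs were higher, 10 with an interval above 0, beside 47.5% and 4.7%. Hmgcs1 had 73, 164 and 137 UMIs in naive, D2 and D7 CTX, or 91.4, 132 and 219 CPM, and its D7 ratio was 1.26 (0.84 to 1.69). It was the 1 synthesis gene that passed the filter at D7 CTX, beside 2.19% of all genes called higher. Below the filter, Nsdhl had 62.3 against 16.3 CPM, a ratio of 1.94 (1.0 to 2.97), Sqle 95.9 against 33.8 CPM, a ratio of 1.5 (0.83 to 2.22), and Fdps 179 against 101 CPM, a ratio of 0.82 (0.39 to 1.25). Insig1 (0.19), Srebf2 (-0.07), Scap (0.28), Npc1 (-0.31) and Npc2 (-0.01) had D7 ratios whose intervals held 0. At D2 CTX Cyp51 and Sqle had ratios of 1.01 (0.40 to 1.65) and 1.0 (0.36 to 1.68), Npc1 had 228 against 173 CPM, a ratio of 0.40 (0.10 to 0.70), and 0 of 6 members that passed were past 1.5-fold, beside 7.75% higher. Neutrophil markers in this gate summed to 539, 1968 and 2404 CPM in naive, D2 and D7 CTX and the class's own markers to 6281, 6471 and 5448 CPM, and the part of the former was not tested.

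In the MHC class II-rich class, of 58 to 86 cells, the synthesis sums were 460, 673 and 708 CPM in naive, D2 and D7 CTX, and the ratios over naive were 0.55 (0.30 to 0.80) and 0.62 (0.36 to 0.89). Msmo1 had 8, 49 and 25 UMIs there, with ratios of 1.89 (0.80 to 3.18) and 1.52 (0.32 to 2.88). GMPs had sums of 262, 296 and 332 CPM, with ratios of 0.18 (0.03 to 0.32) and 0.34 (0.20 to 0.48). Scaled by the median of all gene ratios, the D2 value turned to -0.21. Fdps was their member past 1.5-fold among synthesis genes at D7 CTX, with 104 against 62.0 CPM and a ratio of 0.74 (0.46 to 1.02), beside 4.08%. NK cells and macrophages were lower at D2 CTX, with ratios of -0.52 (-0.87 to -0.19) and -0.72 (-1.33 to -0.08), and T cells had 0.05 (-0.30 to 0.42). The median of all genes was -0.16 in NK cells and -0.10 in macrophages, and 0 synthesis genes passed the filter in either class. The macrophage ratio rested on 72 UMIs at D2 CTX and 33 in naive. Cycling NK cells were 11 of 126 at D2 CTX and 31 of 98 in naive, and their part was not tested. NK cells, T cells and macrophages each numbered under 50 at D7 CTX, so no D7 comparison was made for them.

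B lineage cells had opposite directions for synthesis and export genes at D2 CTX. The synthesis sum was 216 CPM against 310 CPM in naive, a ratio of -0.53 (-0.63 to -0.43), and the storage and export sum was 213 against 102 CPM, a ratio of 1.06 (0.94 to 1.18). The median of all genes was 0.18. Of the 18 synthesis genes 5 were higher and 13 lower, 10 with an interval below 0 and 1 above, beside 21.9% and 39.1% of all genes. Idi1 had 42 UMIs at D2 CTX and 302 in naive, or 8.31 and 29.5 CPM, a ratio of -1.83 (-2.33 to -1.36). Insig1 had 8.71 against 25.4 CPM, a ratio of -1.54 (-2.04 to -1.08), and Sqle, Acat2 and Cyp51 had ratios of -1.52, -1.33 and -0.96. Abcg1 had 297 and 114 UMIs, or 58.8 and 11.1 CPM, a ratio of 2.40 (2.09 to 2.73), Abca1 68.5 against 25.1 CPM, a ratio of 1.45 (1.21 to 1.69), and Mylip 127 against 58.5 CPM, a ratio of 1.11 (0.95 to 1.28). Soat1 and Npc1 each had a ratio of 1.27 and Insig2 one of 0.80. At 1.5-fold, these 6 of 16 members that passed were higher and 2 lower, beside 26.7% and 15.5% of all genes, so the share of calls was near that of the background. Of the 6, Insig2, Npc1, Soat1 and Abcg1 passed only through D2 CTX, and both lower members, Idi1 and Insig1, passed only through naive, so their direction was fixed by the filter.

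The make-up of the B lineage class differed between these libraries. Cycling cells numbered 566 of 2007 in naive and 18 of 1696 in D2 CTX, and cells of the Ms4a1 stage, an immature and mature B cell stage, numbered 598 and 1139 while those of the Vpreb1 and Igll1 stage, the early precursors, numbered 476 and 132. Among non-cycling Ms4a1-stage cells alone, 561 in naive and 1128 in D2 CTX, the synthesis ratio was -0.24 (-0.43 to -0.05). The median of all genes there was 0.12. Abca1 was then level at 68.9 and 70.2 CPM, a ratio of -0.03 (-0.37 to 0.33), and Mylip (0.11), Soat1 (0.31) and Npc1 (0.45) had intervals that held 0. Abcg1 had 187 UMIs at D2 CTX and 38 in naive, or 58.3 and 26.4 CPM, a ratio of 1.14 (0.63 to 1.69), the 1 member past 1.5-fold, beside 7.58% of all genes. Idi1 had 12 and 14 UMIs, a ratio of -1.38 (-2.62 to -0.16), and Insig1 22 and 22 UMIs, a ratio of -1.16 (-2.08 to -0.24), both below the filter. Npc2 was lower with 144 against 212 CPM. In all B lineage cells the neutrophil markers summed to 595 CPM in naive and 2139 CPM in D2 CTX and the macrophage markers to 11.5 and 35.4 CPM, whose part was not tested.

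**Figure D5:**
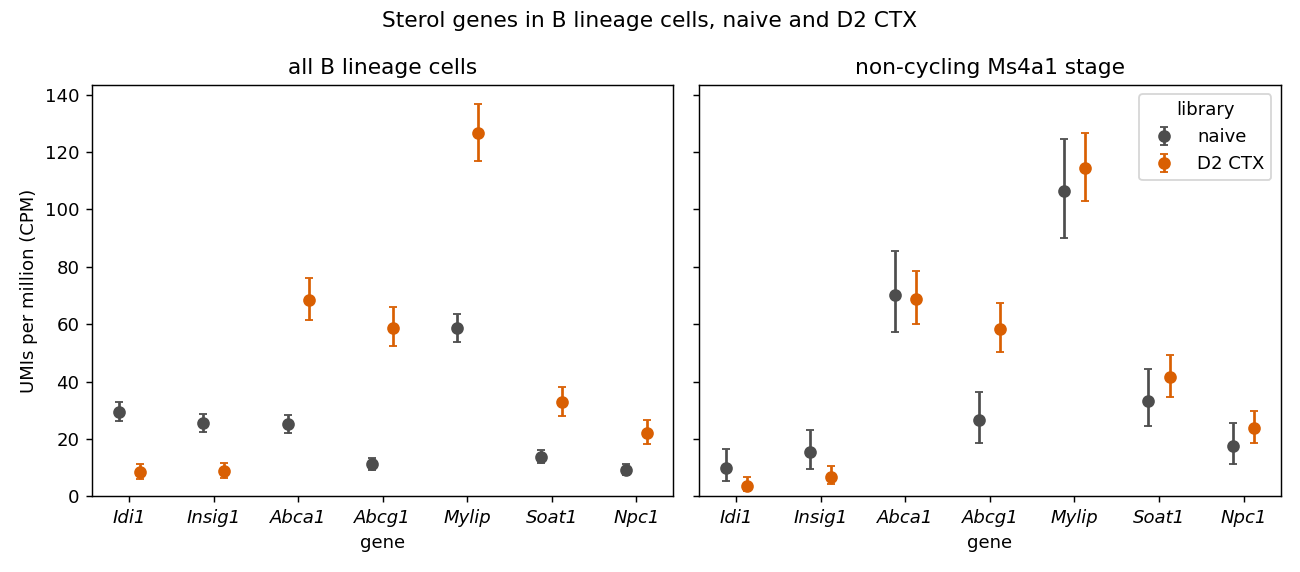
CPM of Idi1, Insig1, Abca1, Abcg1, Mylip, Soat1 and Npc1 in naive and D2 CTX, for all B lineage cells and for non-cycling cells of the Ms4a1 stage, with exact Poisson 95% intervals. Abca1 and Mylip are apart in all B lineage cells (68.5 against 25.1 and 127 against 58.5 CPM) and overlap within the stage, while Abcg1 is apart in both.

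At D7 CTX, B lineage cells numbered 198, of which 106 were cycling. Their synthesis sum was 455 CPM, a ratio of 0.55 (0.44 to 0.66) over naive, with 17 of 18 genes higher and 8 intervals above 0, beside 42.4% and 12.6% of all genes. At 1.5-fold 7 of 17 members that passed were higher and 2 lower, beside 3.83% and 12.2%, and 5 of the 9 synthesis genes among them passed only through D7 CTX. Cyp51 had 37.0 against 13.9 CPM, a ratio of 1.42 (0.99 to 1.84), Fdps 0.92 (0.47 to 1.35), Mvk 0.83 (0.38 to 1.27), Insig1 0.74 (0.36 to 1.10), Idi1 0.72 (0.37 to 1.06), Msmo1 0.68 (0.18 to 1.16) and Acat2 0.64 (0.13 to 1.12). Mylip and Abca1 were lower, with 21.4 against 58.5 CPM and 14.1 against 25.1 CPM, and Abca1 passed only through naive. Within the Vpreb1 and Igll1 stage, of 134 and 476 cells, the ratio of the sum was 0.45 (0.32 to 0.57) with 17 of 18 genes higher and 6 intervals above 0, beside 46.2% and 6.78%, and 0 of 3 synthesis genes, or 0 of 7 members, that passed were at least 1.5-fold higher, beside 1.06%. Among all non-cycling B lineage cells the ratio was 0.18 (-0.22 to 0.56).

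Fdps, Acat2 and Tm7sf2 can share reads with a neighbouring or near-identical gene, so their counts are less certain. The partner of Fdps held 0 to 2 UMIs per library and that of Acat2 0 to 3. Vps51, which overlaps Tm7sf2 on the same strand, held 255 to 617 UMIs where Tm7sf2 held 75 to 184.

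A second list of 26 genes of fatty acid synthesis, isoprenoid use and sterol handling was measured in the same way. Scd2, a stearoyl-CoA desaturase and a target of the SREBP family, was higher in monocytes on both days, with 17.6 CPM in naive, 68.7 CPM at D2 and 54.8 CPM at D7 CTX and ratios of 1.96 (1.57 to 2.37) and 1.64 (1.28 to 2.01). Lpcat3, which remodels phospholipids, was the other gene higher among 12 that passed at D7 CTX, with a ratio of 0.76 (0.34 to 1.2). These 2 of 12 stand beside 1.71% of all genes, and both passed only through D7 CTX, as Scd2 did only through D2 CTX (1 of 9, beside 9.99%). Lipa, the lysosomal lipase that frees cholesterol from esters, was lower at D2 CTX with 55.2 against 114 CPM, a ratio of -1.04 (-1.32 to -0.77), and so was Stard3, with -0.67 (-1.07 to -0.28), 2 of 9 beside 6.06%. In sorted monocytes Apoe, a lipoprotein component, was the 1 gene past 1.5-fold of 11 that passed, with 372 CPM in CTX against 628 CPM in naive, a ratio of -0.76 (-0.79 to -0.72), beside 2.36% lower over all genes. Apoe was at 903 against 1422 CPM in non-cycling sorted cells and at 69.1 against 40.5 CPM in cycling ones. The list held 6 genes that draw on the isoprenoid branch. Of these, Ggps1, Fnta and Dhdds had ratios between -0.09 and -0.01 in D7 CTX monocytes, each with an interval that held 0. No values are given for Fntb, Pggt1b and Pdss1, so the branch as a whole is not described.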

How the data were processed

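Single-cell libraries (10x, 3′ kit) were analysed, 5 in all and 1 per group. Per the labels, the authors deposited whole-number UMI counts per gene and barcode, and their processing notes name Cell Ranger 3.1, mm10 and Seurat 5.0. The deposited barcodes are fewer than the cells the study describes. Cells with at least 200 genes and under 20% mitochondrial UMIs were kept. Whole-BM cells went to the class with the highest marker score, the mean of scaled log levels over a fixed list. A score of at least 0.25 and at least 2 distinct markers were needed. Cells led by MHC class II markers went to the B lineage if they held at least 2 of its markers. Sorted cells were gated by marker UMIs per 10000, at least 20 for granule lists and 10 for MHC class II, also with 2 markers. A class needed 50 cells in a library to be compared. UMIs were summed per class and library, and levels are CPM with exact Poisson 95% intervals. Log2 ratios carry exact conditional binomial 95% intervals. PCR and pooling error are not in these intervals. With 1 library per group no test was possible. Doublets were kept, and Scrublet removal (0.8% per 1000 cells) was an alternative. Named members are those at least 1.5-fold apart with an interval that leaves out 0, up to 20 by size, plus members of the same role that went the other way. Related genes follow the same rule, up to 8. The members, lists and gates were chosen with earlier results of these data known. Promoters came from RefSeq (GRCm38.p6). On simulated counts for monocytes, D7 CTX over naive, 98.8% of tested genes changed 2-fold were called. The simulation held counting error alone, so this share says nothing of variation between mice, cells or libraries. Python 3.11.15, numpy 2.4.6, scipy 1.17.1, pandas 2.3.3, scanpy 1.11.5 and matplotlib 3.10.9 were used.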

Additional observations from a re-analysis of the deposited data

Results flagged for a closer look

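The synthesis sum at D2 CTX over naive had intervals on opposite sides of 0 in different classes of the same pair of libraries. It was higher in neutrophils, with a log2 ratio of 0.51, and in plasmacytoid dendritic cells, with 0.31. The median of all genes was 0.33 and -0.01 there. In neutrophils 11 of 15 synthesis genes were higher, beside 76.6% of all genes, so that share was no larger than the background. It was lower in pre-neutrophils, with -0.40, and in B lineage cells, with -0.53. The median of all genes was 0.26 and 0.18 there. Cycling cells were 566 of 2007 B lineage cells in naive and 18 of 1696 at D2 CTX. Among non-cycling Ms4a1-stage cells the synthesis sum was 206 CPM at D2 CTX and 243 CPM in naive. The part of this make-up was not tested. The difference between the classes was not tested, since each group is 1 library.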

How the results depend on the processing

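Of 210 values that answer a comparison, computed under the alternatives, 162 moved by no more than their counting interval (counts of genes by no more than 1.5 times), and 48 moved further. Among the latter, 2 changed sign, both for D2 over naive monocytes, whose interval of -0.22 to 0.02 held 0 from the start. Of 137 other values 114 stayed within their interval and 19 moved further, and 4 whose interval had left out 0 changed direction, as given below. All alternatives changed 1 choice at a time, and the window of 4000 to 10000 UMIs per cell was chosen after seeing the data. The cause of these shifts was not tested, except that leaving out a gene or lifting the filter acts by construction. No paired analysis was possible because each group is 1 library and no replicate was left out for the same reason. A stricter gate was not run for all sorted cells, to which no gate applies.

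With the 20 most abundant genes left out of the total, the D2 over naive ratio of the synthesis sum was -0.62 in pre-neutrophils and 0.27 in neutrophils, D7 over naive was 0.67 in pre-neutrophils, D7 over D2 was 1.29 in pre-neutrophils and 0.82 in neutrophils, and cycling over non-cycling sorted CTX cells was 0.85. The same setting turned naive pre-neutrophils to -0.067 for cycling over non-cycling. Scaled by the median of gene ratios, D2 over naive was -0.66 in pre-neutrophils, 0.18 in neutrophils, -0.71 in B lineage cells and -0.21, a reversal, in GMPs. D7 over naive was then 0.77 in pre-neutrophils, and D7 over D2 was 1.42 in pre-neutrophils, 0.98 in neutrophils, 0.91 in monocytes and 1.38 in B lineage cells. As a mean of single cells, B lineage ratios were -0.39 for D2 over naive and 0.92 for D7 over D2, and plasmacytoid dendritic cells had 0.37 for D7 over D2.

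Without the synthesis gene with most UMIs, monocytes had 0.075 at D2 and 0.85 at D7 over naive, sorted cells 0.62, and cycling over non-cycling was 1.10 in D7 monocytes, 1.03 in sorted naive and 1.05 in sorted CTX cells, and D7 over D2 in GMPs turned to -0.066. In cells of 4000 to 10000 UMIs, D2 over naive was 0.30 in neutrophils and 0.25 in monocytes, D7 over naive was 0.70 in pre-neutrophils and 0.76 in neutrophils, D7 over D2 was 1.18 in pre-neutrophils, 0.50 in monocytes and 0.37 in plasmacytoid dendritic cells, and sorted CTX over naive was 0.58. Cycling over non-cycling was then 1.06 in D7 monocytes and 0.68 in sorted naive cells, and 0.0054 in D7 pre-neutrophils, where it changed sign.

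Without the filter on low genes, members past 1.5-fold numbered 5 higher and 5 lower of 31 in D2 monocytes (16.3% and 8.63% of all genes), 14 and 1 in D7 monocytes (4% and 5.27%), and 6 higher in sorted cells (1.06%). At 2-fold they were 0 lower in D2 monocytes (1.26% of all genes), 3 higher in D7 monocytes (0.523%) and 1 higher in sorted cells (0.144%). The 3 and the 1 passed the filter only through the CTX library, where they were high. Related genes without the filter numbered 4 higher and 5 lower in D2 monocytes, 1 lower in D7 monocytes and 2 higher in sorted cells, and at 2-fold 1 lower at D2, 1 higher at D7 and 0 lower in sorted cells (0.811% of all genes), the other shares being those just given.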

Other observations

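Granulocyte-monocyte progenitors at D2 CTX had Scap at 38.6 CPM against 20.8 CPM in naive, a log2 ratio of 0.89 (0.41 to 1.40), and Fasn, the fatty acid synthase, at 67.5 against 20.8 CPM, a ratio of 1.70 (1.24 to 2.18). These cells had a median of 33774 UMIs in D2 CTX and 10884 in naive, the median ratio of all genes there was 0.39, and 36.4% of genes that passed were called higher. The gate's own markers differed too. Mpo, Elane, Prtn3, Ctsg and Ms4a3 were lower at D2 CTX, with Elane at 2125 against 14004 CPM. Kit and Cd34 were higher, with Cd34 at 235 against 70.6 CPM. Cycling cells were 109 of 113 at D2 CTX and 129 of 193 in naive. The part of these shifts in the ratios was not tested.

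In non-cycling Ms4a1-stage B lineage cells Scd2 had 121 CPM at D2 CTX and 32.0 CPM in naive, a ratio of 1.92 (1.48 to 2.39). Acly, which supplies cytosolic acetyl-CoA, had 104 against 66.8 CPM, a ratio of 0.64 (0.31 to 0.98), while the cholesterol synthesis sum of the same cells had a ratio of -0.24.

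In sorted monocytes Apoe was lower in cycling than in non-cycling cells, with 40.5 against 1422 CPM in naive and 69.1 against 903 CPM in CTX, ratios of -5.13 (-5.27 to -5.0) and -3.71 (-3.80 to -3.62). Lrp1, an endocytic receptor for APOE, had ratios of -2.33 and -2.21 in the same comparison.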
